A study of Mus musculus with 6 samples.

Results

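The EGF receptor family and its ligands were followed in slow-cycling and other chondrocytes of the mouse growth plate. The 10 genes, chosen by name, were the receptors *Egfr*, *Erbb2* and *Erbb3*, the ligands *Tgfa*, *Hbegf*, *Areg*, *Ereg*, *Btc* and *Nrg1*, and the feedback inhibitor *Errfi1*. All 10 were among the 23159 genes with counts, and 7 of the 10 passed the filter on low counts that left 13728 genes for testing. *Areg*, *Btc* and *Nrg1* did not pass. Of these 7 genes, *Tgfa* was the 1 whose level was higher in every library of label-retaining chondrocytes (LRCs) than in any library of non-LRCs, at 2.26-fold. The same held for 8.41% of all genes tested, so that 1 gene in 7 is not far from the background. The adjusted p of *Tgfa*, 0.0808 (edgeR quasi-likelihood test, Benjamini-Hochberg), missed the threshold of 0.05.

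LRCs and non-LRCs were sorted in 3 experiments from Col2-Q mice at postnatal day (P) 49, giving 3 libraries of each and 3 pairs. The mice were homozygous for 4 alleles, *Col2a1-tTA* (inserted at *Peli2*), *TRE-H2B-GFP* (inserted at *Col1a1*), *Col2a1-creER* and *R26R-tdTomato*. All animals of both groups received doxycycline from P21 to P49, which shut off new H2B-GFP so that dividing cells diluted it, and tamoxifen at P46 and P47, which turned on tdTomato. Cells were freed by collagenase from dissected epiphyses of the distal femur and the proximal tibia, and CD45-negative cells were kept. The growth plate was sheared at its hypertrophic layer, and the rest of it stayed on the epiphysis. LRCs were the tdTomato+ cells with high H2B-GFP (about 10000 cells per library), and non-LRCs were the tdTomato+ cells with mid to low H2B-GFP (about 50000 cells). Both tTA and creER were driven by *Col2a1* sequences. On sections, the study describes a low level of H2B-GFP without tTA in osteoblasts and osteocytes. By flow cytometry of tdTomato+ cells at P21, it reports almost no GFP+ cells without tTA. Each experiment pooled cells of several littermates, and the methods call the term that pairs the libraries the mouse of origin.

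EGF family ligands are made as membrane proteins, are cut from the cell surface by ADAM proteases, and bind receptor tyrosine kinases that act as dimers. EGFR binds TGFα, HB-EGF, amphiregulin, epiregulin and betacellulin, ERBB3 binds neuregulins, and ERBB2 has no ligand of its own but serves as a partner of the others. In cartilage, EGFR signaling is known for its roles in the replacement of hypertrophic cartilage by bone and in the upkeep of the articular surface, and loss of the inhibitor *Errfi1* (also called Mig-6) in mice is known to lead to joint disease.

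Counts per library lay between 18943789 and 129559872, so that 1 count was worth between 0.00856 and 0.0478 CPM (counts scaled to the size of the library, here by the TMM method). Both extremes were LRC libraries, and the smallest, LRC 2, stood apart, with 1731 of the tested genes at 0 against 4 to 365 in the others. The cartilage collagen *Col2a1* took 7.0% to 17.4% of all counts. Endothelial markers summed to 0.442 to 1.75 CPM, with *Cdh5*, *Kdr* and *Emcn* at 0 in every library. Leukocyte and erythroid markers summed to 8.78 to 26.4 CPM in LRCs and 11.8 to 22.2 CPM in non-LRCs. Of these, *Cpa3* and *Hba-a1* were at 0 throughout and *Ptprc* had 10 counts in 1 library, while the macrophage marker *Cd68* was at 4.71 to 23.0 CPM and the hemoglobin gene *Beta-s* at 0.685 to 8.38 CPM, with *Beta-s* lower in LRCs in each experiment (log2 fold change -1.81, adjusted p 0.139 by edgeR). Superficial articular and synovial markers summed to between 1453 and 3092 CPM in LRCs and between 142 and 205 CPM in non-LRCs. Of these 7 markers, 4 (*Clu*, *Thbs4*, *Prg4* and *Cilp*) were called higher (adjusted p below 0.05 by edgeR). Over all genes tested, 0.903% were called higher and 1.28% were called in either direction. The study also describes *Prg4* in resting zone chondrocytes, at a low level and far fainter than at the articular surface. *Prg4* therefore does not mark articular or synovial cells alone, and the study did not localize the other genes of this list. By its cell counts, nearly all tdTomato+ cells freed from the epiphyses came from the growth plate. Those counts covered all tdTomato+ cells and were not split by H2B-GFP. The part of articular or synovial cells in the LRC libraries was not tested. The median log2 fold change of LRCs against non-LRCs was -1.94 over 6 hypertrophic markers and -0.45 over 10 chondrocyte markers, against -0.10 over all genes tested. Of the 6 hypertrophic markers, 4 were lower in all 3 experiments, and *Panx3* was called lower. Of the 10 chondrocyte markers, 9 had lower and 1 a higher fitted value, and none was called. Over all genes tested, 26.0% were lower in all 3 experiments. Osteoblast markers summed to 1394 to 3151 CPM in LRCs and 1231 to 2130 CPM in non-LRCs, with 3 of 6 higher and 3 lower by fitted value, *Col1a1* called higher, and *Bglap* and *Bglap2* lower in each experiment without being called (log2 fold changes -1.14 and -1.48, adjusted p 0.117 and 0.116 by edgeR). Schwann cell and melanocyte markers summed to 27.8 to 34.7 and 28.2 to 41.5 CPM in LRCs and non-LRCs, and skeletal muscle markers to 12.6 to 23.4 and 23.6 to 43.0 CPM. In such bulk libraries, fewer cells that express a gene and less RNA per cell cannot be told apart.

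Mean levels of the 10 genes ran from 0.0457 CPM for *Nrg1* to 1789 CPM for *Errfi1*. By mean CPM over the 6 libraries, *Errfi1* was the 42nd most abundant of the 23159 genes, *Hbegf* the 183rd, *Tgfa* the 3900th, *Egfr* the 6533rd and *Erbb2* the 7011th. The other 5 ranked from *Ereg* at 12677 to *Nrg1* at 15631. CPM per kb of exon allows a rough comparison between genes. It uses all annotated exons of a gene, not those of the transcripts expressed. On this scale, the medians in LRCs were 517 for *Errfi1*, 161 for *Hbegf*, 7.58 for *Tgfa*, 3.84 for *Erbb2* and 1.43 for *Egfr*. In non-LRCs they were 457, 122, 3.51, 2.24 and 1.14 in the same order. The ranges over the 6 libraries of *Errfi1* (361 to 648) and *Hbegf* (101 to 175) did not overlap each other or that of *Tgfa* (2.84 to 9.22). *Erbb2* (0.376 to 4.46) and *Egfr* (0.825 to 2.30) did overlap, and the order of their medians rests on exon length, since *Egfr* ranked above *Erbb2* by mean CPM. The remaining genes stayed below 0.4 in every library.

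**Figure D1:**
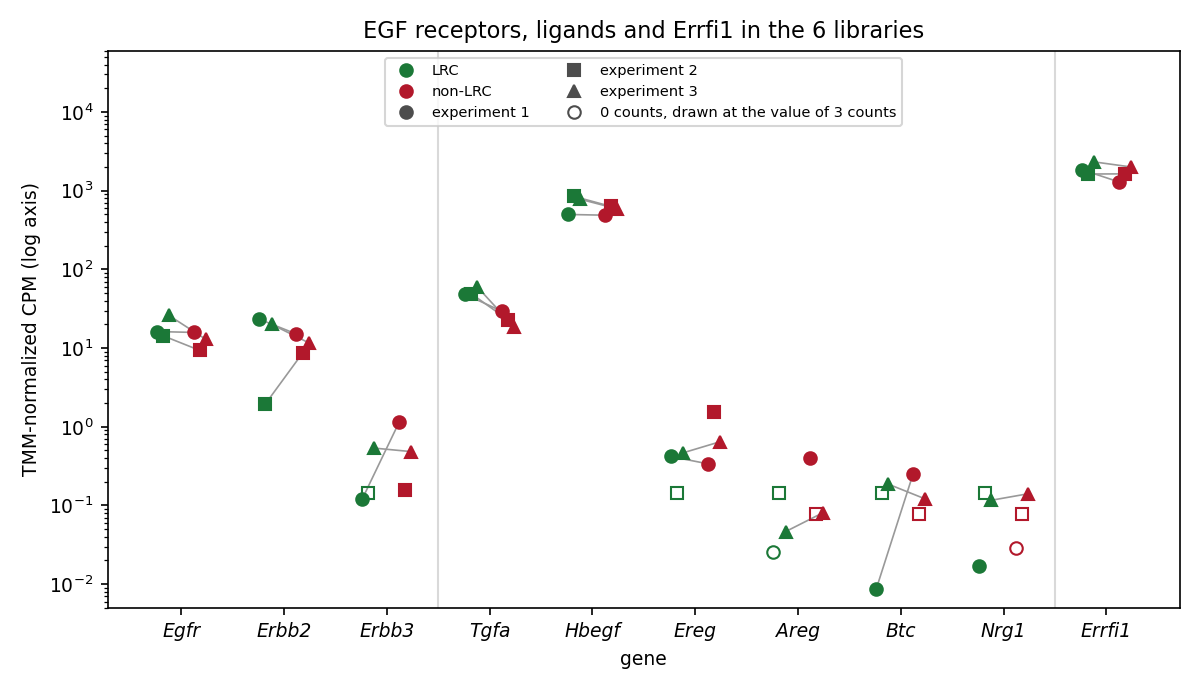
TMM-normalized CPM on a log axis of each gene in the 3 LRC (green) and 3 non-LRC (red) libraries, with the symbol giving the experiment and a gray line joining the pair. Open symbols are libraries with 0 counts, drawn at the value of 3 counts in that library. *Tgfa* lies at 48.4 to 59.9 CPM in LRCs and at 18.4 to 29.3 CPM in non-LRCs, while the groups overlap for the other 6 tested genes.

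Among the receptors, *Egfr* (GRCm38 chr11:16752203-16918158, plus strand) was the 1 that leaned toward LRCs in each experiment. It was at 16.2, 14.4 and 26.0 CPM in LRC 1, 2 and 3 and at 15.8, 9.35 and 12.9 CPM in non-LRC 1, 2 and 3. The highest library was LRC 3, but LRC 2 lay below non-LRC 1, so the groups overlapped. Within experiments 1, 2 and 3, the log2 difference was 0.04, 0.62 and 1.01. The fitted log2 fold change was 0.56 (SE 0.29, 95% interval -0.15 to 1.26, n = 3 pairs), with an adjusted p of 0.369 by edgeR, so that a decrease of that small size and a 2.40-fold increase both lay within the interval.

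*Erbb2* (chr11:98412470-98437716, plus strand), the ligand-less partner receptor, turned on a single library. It was at 23.2, 1.96 and 20.0 CPM in the 3 LRC libraries and at 15.1, 8.61 and 11.7 CPM in the 3 non-LRC libraries. LRC 1 and LRC 3 were above all non-LRCs, and LRC 2, with 41 counts (exact 95% interval 1.41 to 2.66 CPM, counting error only), was below all of them. The log2 fold change over 3 pairs was -0.14 (SE 0.63, 95% interval -1.67 to 1.40) with an adjusted p of 0.929 by edgeR. Without experiment 2 the sign turned, to 0.70 with an adjusted p of 0.0944. Of its 5210 exon bases, 9 are shared with *Mien1* on the opposite strand, and the strand setting of the counting is not given in the sources used here.

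*Erbb3* (chr10:128567523-128589652, minus strand), a receptor for neuregulins with little kinase activity of its own, was close to the detection limit. It had 14, 0 and 23 counts in LRCs and 118, 6 and 24 in non-LRCs, which is 1.14 CPM in non-LRC 1 and 0.535 CPM or less in the others. The high library was non-LRC 1, and experiment 3 showed near equal levels of 0.535 and 0.483 CPM. Its log2 fold change of -2.18 had an SE of 1.68 and an adjusted p of 0.546 by edgeR. The remaining receptor of the family, *Erbb4*, had 14, 0 and 16 counts in LRCs and 0, 0 and 21 in non-LRCs and was not tested.

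Among the ligands, *Tgfa* (chr6:86195223-86275719, plus strand), which encodes TGFα, separated the groups. LRC 1, 2 and 3 had 48.4, 49.2 and 59.9 CPM, from 5647, 1029 and 2572 counts. Non-LRC 1, 2 and 3 had 29.3, 22.8 and 18.4 CPM, from 3028, 871 and 916 counts. Each LRC library was thus above each non-LRC library, and the means were 52.5 ± 6.41 and 23.5 ± 5.48 CPM (SD, n = 3 each). The log2 difference was 0.72, 1.11 and 1.70 in experiments 1, 2 and 3, and the fitted value was 1.17 (SE 0.24, 95% interval 0.59 to 1.76), a 2.26-fold difference with an interval of 1.5- to 3.39-fold. The edgeR p was 0.00272 before and 0.0808 after Benjamini-Hochberg adjustment over 13728 genes. The shallow library LRC 2 did not set this value. Without experiment 2 the log2 fold change was 1.21, with an adjusted p of 0.0501 by edgeR. The adjusted p was higher with either other experiment left out. It was 0.1805 without experiment 1 (log2 fold change 1.40) and 0.2319 without experiment 3 (log2 fold change 0.94), both by edgeR.

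These counts are read against all genes. No gene of the family was called at an adjusted p below 0.05 by edgeR with the block, where 0.903% of genes were called higher in LRCs and 1.28% in either direction. At an unadjusted p below 0.05, 1 of the 7 (*Tgfa*) was higher, and the background was 8.89%. Groups did not overlap, with LRCs higher, for 1 of the 7 (*Tgfa* again) and for 8.41% of all genes tested, so that 1 gene in 7 is not far from either background. The call on *Tgfa* depended on the fit. It was called by DESeq2 (adjusted p 0.000384), which called 6.16% of genes higher, by limma-voom (adjusted p 0.0102), which called 5.22% higher, and by edgeR on the genes with at least 10 counts in every library (adjusted p 0.0295), where 3.78% were called higher. The fitted log2 fold change of *Tgfa* stayed between 0.94 and 1.40 over all 10 alternatives.

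**Figure D2:**
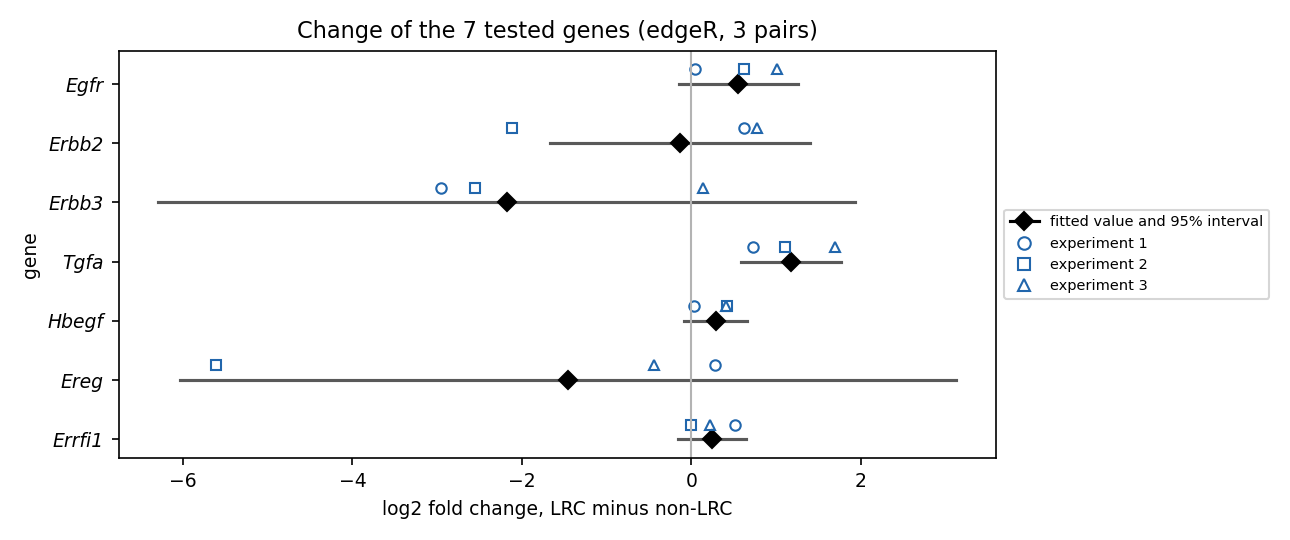
Log2 fold change of LRCs over non-LRCs for the 7 tested genes, with the edgeR value (diamond), its 95% interval (line) and the difference within each experiment (open symbols, log2 CPM). The interval of *Tgfa* runs from 0.59 to 1.76 and lies above 0, while those of the other 6 genes include 0.

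The 250 bases before the RefSeq start of *Tgfa* are shown because this gene separated the groups (GRCm38.p6, chr6:86194972-86195221, plus strand). Capitals mark the GC box, GGGCGG on either strand, a binding motif of Sp factors, whose 2 copies lie 126 and 15 bases before the start. Among 32851 RefSeq promoters of the same length, 32.7% hold this motif on either strand. There was no AP-1 motif (TGANTCA, in 6.75% of promoters), CRE (TGACGTCA, 1.55%) or TATA box (TATAAA, 12.4%) in this window.
Tgfa: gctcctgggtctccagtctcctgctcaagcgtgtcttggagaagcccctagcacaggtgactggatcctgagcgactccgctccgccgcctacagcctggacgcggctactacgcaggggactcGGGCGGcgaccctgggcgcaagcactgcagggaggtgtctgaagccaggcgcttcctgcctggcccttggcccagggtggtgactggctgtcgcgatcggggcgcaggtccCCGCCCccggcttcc
The *Egfr* window (chr11:16751953-16752202, plus strand), of the receptor that TGFα binds, held 1 GC box, 9 bases before the start and again in capitals, and none of the other 3 motifs.
Egfr: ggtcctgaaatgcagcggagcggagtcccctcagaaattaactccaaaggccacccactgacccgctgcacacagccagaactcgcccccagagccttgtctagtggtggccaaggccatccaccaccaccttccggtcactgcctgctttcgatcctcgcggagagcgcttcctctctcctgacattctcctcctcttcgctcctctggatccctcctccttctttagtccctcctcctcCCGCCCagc

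*Hbegf*, which encodes heparin-binding EGF-like growth factor, was the most abundant ligand in every library. LRC 1, 2 and 3 had 499, 847 and 779 CPM, and non-LRC 1, 2 and 3 had 488, 631 and 589 CPM. Experiment 1 had the lowest library of each group, and LRC 1 lay below non-LRC 2 and non-LRC 3, so that the groups overlapped. Within experiments, the log2 difference was 0.03, 0.42 and 0.40, and the fitted value was 0.29 (SE 0.15, 95% interval -0.08 to 0.66, adjusted p 0.376 by edgeR). Each library gave at least 17719 counts of *Hbegf*, and the interval reached up to a 1.58-fold increase.

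The mix of ligand transcripts, calculated from the same counts and not tested, leaned toward a larger share of *Tgfa* in LRCs. Per kb of exon, *Hbegf* made up 93.2% to 97.5% of the summed level of the 6 ligands. *Tgfa* made up 6.73%, 4.15% and 5.40% in LRC 1, 2 and 3 and 4.26%, 2.61% and 2.27% in non-LRC 1, 2 and 3. The share was higher in LRCs within each experiment, but LRC 2 lay just below non-LRC 1. The ratio of *Hbegf* to *Tgfa* per kb was 13.8, 23.1 and 17.5 in LRCs and 22.4, 37.2 and 42.9 in non-LRCs, and the ratio of *Tgfa* to *Egfr* per kb was 5.20, 5.97 and 4.02 in LRCs and 3.24, 4.26 and 2.49 in non-LRCs. Both ratios were on the side of *Tgfa* in LRCs in each of the 3 experiments, with overlapping groups, and neither was tested on its own.

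The other ligands were at or near the detection limit. *Ereg* (epiregulin, chr5:91074622-91093646, plus strand) had 49, 0 and 20 counts in LRCs and 35, 59 and 32 in non-LRCs, which is at most 1.54 CPM, reached in non-LRC 2. The 0 counts of LRC 2 allow up to 0.143 CPM (3 counts). The log2 fold change of *Ereg* was -1.45 (SE 1.87, adjusted p 0.727 by edgeR) and shrank to -0.07 without experiment 2. *Areg* (amphiregulin, chr5:91139599-91148432, plus strand) had 0, 0 and 2 counts in LRCs and 42, 0 and 4 in non-LRCs, *Btc* (betacellulin, chr5:91357261-91402994, minus strand) had 1, 0 and 8 against 26, 0 and 6, and *Nrg1* (neuregulin 1, chr8:31814551-32884029, minus strand) had 2, 0 and 5 against 0, 0 and 7. Most of the *Areg* and *Btc* counts came from non-LRC 1, a deep library, where 42 counts are 0.407 CPM (exact 95% interval 0.293 to 0.550). In a fit with no filter on low counts, over 17835 genes, the adjusted p by edgeR was 0.751 for *Areg*, 0.853 for *Btc* and 0.909 for *Nrg1*.

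Ligands of the family outside the 10 genes were also scarce. *Egf* itself had 65, 25 and 21 counts in LRCs and 44, 0 and 56 in non-LRCs, with a log2 fold change of 1.12 (SE 2.07, adjusted p 0.813 by edgeR) that turned to -0.40 without experiment 2. *Epgn* (epigen) had 1 count in all, and *Nrg2*, *Nrg3* and *Nrg4* had at most 27 counts in any library. Of these 5 ligands and *Erbb4*, 1 gene (*Egf*) was tested and 0 were called, by edgeR, DESeq2 or limma-voom, also at an unadjusted edgeR p below 0.05.

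*Errfi1* (chr4:150853919-150868892, plus strand) encodes an inhibitor that binds the kinase domains of EGFR and ERBB2 and is itself induced by their signaling. It was the most abundant of the 10 genes, at 1852, 1628 and 2322 CPM in LRC 1, 2 and 3 and at 1295, 1636 and 2002 CPM in non-LRC 1, 2 and 3. The highest library was LRC 3 and the lowest non-LRC 1, with LRC 2 and non-LRC 2 nearly equal, and the groups overlapped. The log2 difference was 0.52, -0.01 and 0.21 within experiments, and the fitted value was 0.24 (SE 0.16, 95% interval -0.16 to 0.64, adjusted p 0.486 by edgeR). The interval ran from 0.897- to 1.56-fold. Per kb, *Errfi1* exceeded *Egfr* by 282- to 361-fold in LRCs and by 259- to 553-fold in non-LRCs, and this ratio was higher in LRCs in experiment 1 only.

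The windows before the start of *Errfi1* and of *Areg* are shown together because they hold the same pair of motifs. Capitals mark the GC box, the CRE (the binding motif of CREB factors) and the TATA box. The window of the second RefSeq start of *Errfi1* (chr4:150854820-150855069, plus strand) held 3 GC boxes, a CRE 51 bases and a TATA box 28 bases before the start. That of *Areg* (chr5:91139349-91139598, plus strand) held 1 GC box at 52 bases, a CRE at 61 and a TATA box at 31.
Errfi1: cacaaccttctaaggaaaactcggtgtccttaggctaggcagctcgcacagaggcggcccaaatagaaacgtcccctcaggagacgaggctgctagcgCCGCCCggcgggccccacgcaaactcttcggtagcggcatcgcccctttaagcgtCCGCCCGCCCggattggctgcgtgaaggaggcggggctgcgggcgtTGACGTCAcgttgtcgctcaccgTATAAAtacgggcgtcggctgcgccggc
Areg: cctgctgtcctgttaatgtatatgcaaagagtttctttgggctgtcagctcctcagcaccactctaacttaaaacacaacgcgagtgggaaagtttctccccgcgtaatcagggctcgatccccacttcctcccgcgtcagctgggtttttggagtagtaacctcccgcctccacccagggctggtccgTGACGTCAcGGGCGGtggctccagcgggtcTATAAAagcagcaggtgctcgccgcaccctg
A CRE and a TATA box stood together in 0.119% of the 32851 promoters. The pair was picked after the windows were searched, so this share is a description and not a test. The level of *Errfi1* was at least 1295 CPM in every library and that of *Areg* was 0.407 CPM or less. These are levels of whole genes, and how much of the *Errfi1* level came from this start, rather than from its first start, was not measured. The windows of *Btc*, of *Erbb2* and of the first start of *Errfi1* held none of the 4 motifs. A RefSeq window was matched for 6 of the 10 genes, and those of *Erbb3*, *Ereg* and *Nrg1* were not matched. The window of *Hbegf* was not searched, since the promoters of its chromosome were left out of the set of 32851.

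**Figure D3:**
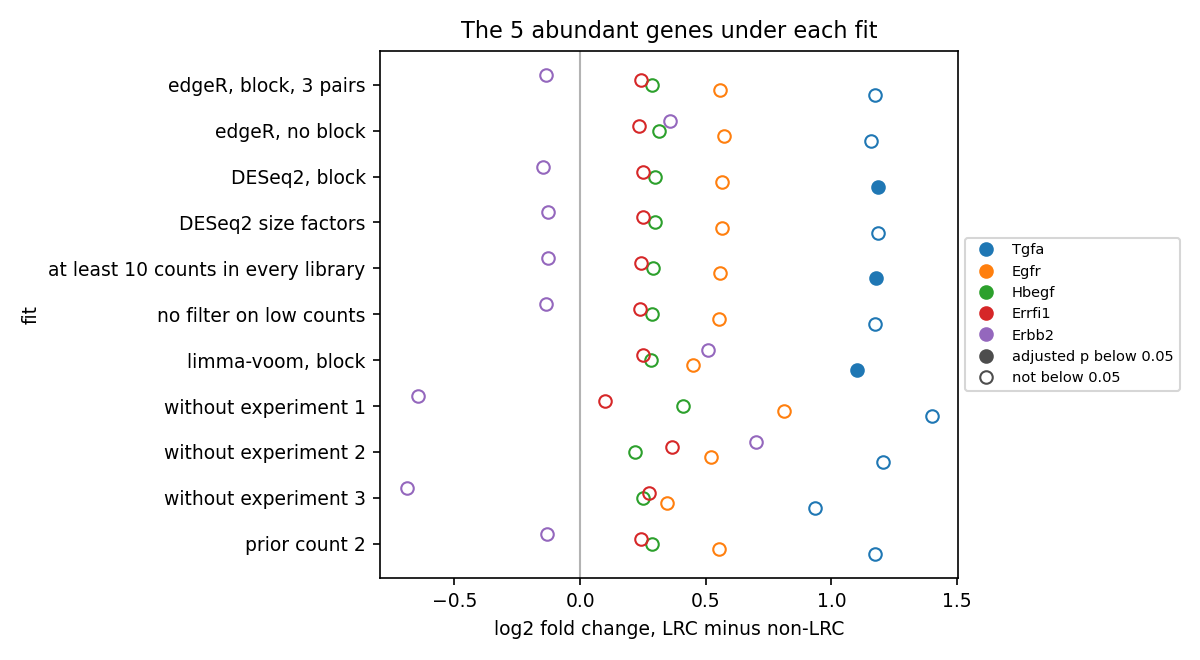
Log2 fold change (LRC minus non-LRC) of the 5 abundant genes under the edgeR fit with the experiment as a block and under 10 alternatives, with filled symbols where the adjusted p was below 0.05. *Tgfa* stays between 0.94 and 1.40 and is filled in 3 fits, and *Erbb2* lies on both sides of 0, from -0.69 to 0.70.

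The wider pathway was described with lists of its parts. In the list of ligand shedding genes, 0 of 5 were called and the median log2 fold change was 0.14, against -0.10 over all 13728 genes tested. At an unadjusted edgeR p below 0.05, 2 of the 5 were higher and 0 lower, and DESeq2 and limma-voom each called 2 higher. The shares of all genes tested that were higher by these 3 rules were 8.89%, 6.16% and 5.22%. *Adam17*, the main protease that frees TGFα and HB-EGF, was at 71.8, 61.2 and 72.9 CPM in LRCs and 69.4, 47.1 and 73.6 CPM in non-LRCs, so the groups overlapped. *Rhbdf1*, which encodes a rhomboid-like protein that brings ADAM17 to the surface, was at 71.2, 80.9 and 56.5 CPM in LRCs and 46.3, 36.3 and 39.2 CPM in non-LRCs, with no overlap. Its log2 fold change of 0.77 had an SE of 0.19 and an adjusted p of 0.116 by edgeR. *Timp3*, an inhibitor of ADAM17, was at 1914, 1355 and 1271 CPM against 1020, 1205 and 659 CPM, and its groups did not overlap either. The fit gave *Timp3* a log2 fold change of 0.68 (SE 0.20, adjusted p 0.158 by edgeR).

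Among genes that restrain receptors or control their turnover, 1 of 13 was called higher, where 0.903% of all genes were, 0 were called lower, and the median was 0.05. At an unadjusted edgeR p below 0.05, 4 were higher (8.89% of all genes), and 4 were called higher by DESeq2 (6.16%), 3 by limma-voom (5.22%) and 3 under the stricter filter (3.78%). *Socs5*, a ubiquitin ligase adaptor known to promote the degradation of EGFR, was the called gene. It was at 125, 151 and 104 CPM in LRCs and 71.2, 77.7 and 52.8 CPM in non-LRCs, with no overlap. Its log2 fold change was 0.92 (SE 0.14, adjusted p 0.0489 by edgeR), and the call was lost without the block and without experiment 1 or 3. The gene listed as *Erbb2ip* (Erbin), whose product binds ERBB2, was at 183, 105 and 165 CPM in LRCs and 111, 71.1 and 79.0 CPM in non-LRCs. The groups overlapped by LRC 2 and non-LRC 1, and its log2 fold change was 0.78 (SE 0.16, adjusted p 0.0808 by edgeR). *Lrig1* had the largest fitted value of the list, a log2 fold change of 1.21 (SE 0.25, adjusted p 0.0834 by edgeR). It was higher in LRCs in each experiment, at 32.7, 11.1 and 22.2 CPM against 12.4, 4.45 and 11.8 CPM, with overlap. Over the list, 8 fitted values were higher and 5 lower. The ubiquitin ligase genes *Cbl* and *Cblb* had log2 fold changes of -0.76 and 0.38 and were not called. The negative value of *Cbl* rests on LRC 2, which had 0 counts, since its log2 difference was 0.12 and 0.93 in experiments 1 and 3.

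Of the transducers from receptor to ERK, 0 of 20 were called, with a median of 0.06 and with 12 higher and 8 lower fitted values. At an unadjusted edgeR p below 0.05, 1 of the 20 was higher (8.89% of all genes), and DESeq2 called 1 higher (6.16%) and limma-voom 0 (5.22%), so these counts were not above the background. *Shc1*, an adaptor of activated receptors, was at 179, 133 and 137 CPM in LRCs and 121, 91.1 and 107 CPM in non-LRCs, without overlap, and its fitted log2 fold change was 0.49 (SE 0.14, adjusted p 0.145 by edgeR). *Pik3r1*, the regulatory subunit of PI3-kinase, was at 34.0, 33.0 and 64.3 CPM in LRCs and 43.4, 74.9 and 70.0 CPM in non-LRCs, with overlap, and its fitted value was -0.55 (SE 0.24, adjusted p 0.304).

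In the list of feedback and target genes of ERK, 0 of 16 were called, the median was 0.21, and 11 had higher fitted values, of which 5 were higher in all 3 experiments. Over all genes tested, 20.4% were higher in all 3. At an unadjusted edgeR p below 0.05, 4 of the 16 were higher (8.89% of all genes) and 0 lower, and DESeq2 (6.16%) and limma-voom (5.22%) each called 4 higher. *Spry1*, a feedback inhibitor of receptor signaling, was at 4.30, 11.0 and 5.72 CPM in LRCs and 0.784, 0.628 and 1.03 CPM in non-LRCs, with no overlap and a log2 fold change of 3.00 (SE 0.63, adjusted p 0.0834 by edgeR). *Dusp6*, the ERK phosphatase, was at 163, 265 and 139 CPM against 90.4, 82.3 and 101 CPM, again with no overlap (log2 fold change 1.0, SE 0.25, adjusted p 0.117 by edgeR). Not all members leaned this way, since 5 had lower fitted values. *Dusp4*, *Epha4* and *Etv4* had log2 fold changes of -2.24, -2.38 and -0.70, at levels below 6 CPM in every library. *Dusp4* and *Epha4* had 0 counts in LRC 2, and *Epha4* was higher in LRCs in experiment 3. *Dusp5*, at 27.1 to 78.6 CPM, and *Epha2*, at 73.2 to 166 CPM, had log2 fold changes of -0.25 and -0.20.

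Immediate early and heat shock genes, which respond to many signals including dissociation and sorting, were listed beside them. Of 19 genes, 2 were called higher and 0 lower, 17 had higher fitted values, 11 were higher in all 3 experiments, and the median was 0.31. Over all genes, 0.903% were called higher and 20.4% were higher in all 3 experiments. At an unadjusted edgeR p below 0.05, 8 of the 19 were higher (8.89% of all genes) and 0 lower, and DESeq2 (6.16%) and limma-voom (5.22%) each called 7 higher. The called genes were *Hspa1a*, a heat shock chaperone, at 10.7, 68.0 and 117 CPM in LRCs and 2.59, 6.18 and 13.2 CPM in non-LRCs, and the orphan nuclear receptor *Nr4a1*, at 64.4, 55.0 and 116 CPM against 35.6, 23.3 and 45.5 CPM. The log2 fold change was 2.89 for *Hspa1a* (SE 0.33, adjusted p 0.0275 by edgeR, lost without the block) and 1.15 for *Nr4a1* (SE 0.18, adjusted p 0.0489, lost without the block and without experiment 1 or 3). *Hspa1a* overlapped between the groups, by LRC 1 and non-LRC 3, while *Nr4a1* did not. The summed level of the list was 4169 to 6193 CPM in LRCs and 2926 to 5230 CPM in non-LRCs. *Ier3* is in this list and in that of ERK targets. The part of such a response in the levels of *Errfi1*, *Hbegf* and the ERK targets was not tested.

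**Figure D4:**
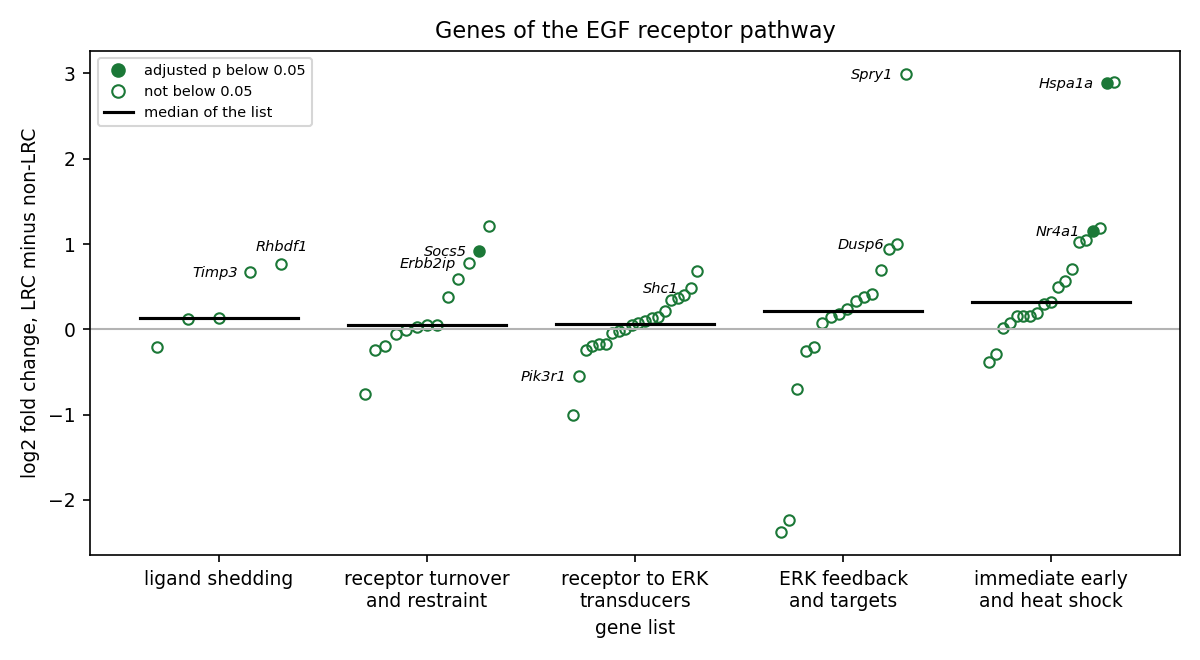
Log2 fold change (LRC minus non-LRC, edgeR) of each tested gene in 5 lists of the pathway, ordered by value within a list, with the median of each list as a bar and filled symbols for an adjusted p below 0.05. The medians lie between 0.05 and 0.31, and the filled genes are *Socs5*, *Hspa1a* and *Nr4a1*.

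The genes whose log2 CPM followed *Tgfa* most closely over the 6 libraries were *Mlxip* (Pearson r = 0.981), *Ccar1* (0.973), *Gpr64* (0.971), *Srrm2* (0.969) and *Sim2* (0.969). The 6 points are 3 pairs and include the difference between the groups, and all genes of a library share its depth. *Sim2*, which encodes a bHLH-PAS transcription factor, was at 9.62, 8.75 and 8.12 CPM in LRCs and 3.45, 2.59 and 2.17 CPM in non-LRCs, a wider gap than that of *Tgfa*. The gap of *Ccar1* was narrow, at 84.8 to 87.2 CPM in LRCs and 73.3 to 81.7 CPM in non-LRCs. The superficial articular and synovial sum was lowest among LRCs in LRC 2, at 1453 CPM, where *Tgfa* was at 49.2 CPM, and the part of the cells with these markers in the *Tgfa* difference was not tested. Epithelial markers, of a cell type known for EGF family ligands, overlapped between the groups, at 35.0 to 65.1 CPM in LRCs and 31.1 to 40.5 CPM in non-LRCs. Most of that sum was *Epcam*, at 21.1 to 58.4 CPM, while *Krt8*, *Krt14* and *Krt18* were lower in LRCs in each experiment and were not called.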

How the data were processed

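RNA of sorted LRCs and non-LRCs (3 libraries each) was analysed from the counts the authors deposited. Per the methods, the labels or both, the authors amplified cDNA with a SMART-Seq v4 kit (methods), sequenced Nextera XT libraries as single-end reads, aligned them to mm10 (GRCm38) with TopHat2 2.0.13 and Bowtie2 2.2.1 (versions from the submitters' processing notes) and counted non-ambiguous reads per gene with HTSeq. The annotation and strand setting are not given in the sources used here. The deposited counts carry no molecular identifiers, so amplified copies are counted, and exact (Clopper-Pearson) 95% intervals and limits of 3 counts cover counting error only. Deposited size-factor-normalized and rlog tables were not used. All deposited columns were mapped to samples by their names.

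Counts were fitted in R 4.3.3 with edgeR 4.0.16 (filterByExpr with a minimum count of 10 and total of 15, TMM, quasi-likelihood test, prior count 0.125), with the experiment as a block and Benjamini-Hochberg adjustment over all 13728 genes tested. The pairing comes from the methods, which name a term for the mouse of origin. Deviations from the group means correlated between same-numbered libraries across genes at r = 0.197, 0.288 and 0.336. Per the study, each experiment used cells of several littermates, whose number is not given in the sources used here. The p-values thus measure the spread between these 3 pairs, with the variance of each gene moderated by that of all genes tested. Each edgeR SE was derived from the log2 fold change and the F statistic of the test. Differences within experiments and likeness to *Tgfa* use log2 CPM with a prior count of 2. Fits were tested on simulated data.

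The members and lists were chosen with earlier results of these data known. Named were all members, list genes with an adjusted p below 0.05, the 2 of smallest p in each list (marker lists are given by their sums and called genes, with others named beside them), and the 5 genes most like the member of smallest p. *Adam17*, *Lrig1*, *Cbl*, *Cblb*, *Bglap*, *Krt18*, *Epcam*, *Dusp4*, *Dusp5*, *Epha2*, *Epha4* and *Etv4* were added after their values were seen. Erbin was matched as *Erbb2ip*. Exon lengths and gene positions are from GENCODE vM21 (GRCm38), and promoters from RefSeq (GRCm38.p6, without the chromosome of *Hbegf*), searched on both strands. Alternatives were no block, DESeq2 1.42.0, DESeq2 size factors, 10 or more counts in every library, no filter, limma-voom (limma 3.58.1), a prior count of 2, and each experiment left out.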

Additional observations from a re-analysis of the deposited data

How the results depend on the processing

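Over 10 alternatives, or 9 for *Erbb3* and *Ereg* (below the stricter filter), *Egfr*, *Erbb3*, *Tgfa*, *Hbegf*, *Ereg* and *Errfi1* kept the sign of their change, with adjusted p from 0.285 to 0.875 for *Egfr*, 0.000384 to 0.256 for *Tgfa*, 0.239 to 0.788 for *Hbegf* and 0.187 to 0.895 for *Errfi1*. *Erbb2* turned from -0.14 to 0.36 with no block, 0.51 with limma-voom and 0.70 without experiment 2 (-0.69 to 0.70 over the experiments left out), and *Egf* turned from 1.12 to -0.40 without experiment 2 (up to 3.39). In both genes a library of experiment 2 had few or no counts.

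Numbers of calls varied more. Past an adjusted p of 0.05 and a 2-fold change, 166 of all genes tested passed with the experiment as a paired block and 1 with no block, 799 by DESeq2, 434 with at least 10 counts in every library, 621 by limma-voom, and 35 (without experiment 1) to 555 (without experiment 2) with an experiment left out. Family and list genes were counted at an adjusted p below 0.05 alone, with no 2-fold limit. Of the 10 family genes, 0 were called with the block and with no block, and 1 (*Tgfa*) by DESeq2, limma-voom and the stricter filter. Of the pathway list genes, 3 were called with the block, 0 with no block, 18 by DESeq2, 9 with the stricter filter and 16 by limma-voom. With an experiment left out, 2 to 11 were called (11 without experiment 2, 5 without experiment 3). The lists had 1, 5, 13, 20, 16 and 19 tested genes. By the same rule, 0.903% of all genes were called higher with the block, 6.16% by DESeq2, 3.78% with the stricter filter and 5.22% by limma-voom. The cause of these shifts was not tested. Depth limits *Erbb3*, *Ereg*, *Areg*, *Btc* and *Nrg1*, where 3 counts are worth 0.0257 to 0.143 CPM.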
